A study of Mus musculus with 10 samples.

Results

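Amino acids cross the plasma membrane through carrier proteins of several solute carrier families, and 10 transcripts of such carriers were followed here in mouse hippocampus. They are Slc3a2, Slc7a5, Slc7a11, Slc7a10, Slc7a1, Slc7a3, Slc1a5, Slc1a4, Slc38a2 and Slc6a9. They were taken by gene symbol from the deposited count table, which holds 20156 gene rows, and all 10 were present. All 10 also passed the filter on low counts, which left 16180 genes for testing, with between 19 counts (Slc1a5) and 12865 counts (Slc3a2) in any one library.

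Hippocampal RNA came from 5 mice of the genotype labelled TfamAKO and 5 wild type (WT) mice, all 6 months old, with 1 stranded mRNA library per mouse. Tfam encodes the protein that packages mitochondrial DNA. The title of the series speaks of astrocytic mitochondria, but the labels name neither the promoter or Cre driver, nor the deleted part of the gene, nor the cells in which it was deleted. The comparison asks which transporter transcripts differed between the genotypes. Levels are CPM, read counts brought to a common library size, and a change is the log2 fold change of TfamAKO over WT with its standard error (SE).

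Amino acid carriers divide by their mechanism. The heteromeric carriers consist of a light chain, which forms the transport path, and a heavy chain, SLC3A2 (also 4F2hc or CD98), which brings the pair to the cell surface. The cationic carriers of the SLC7 family work without a heavy chain, and carriers of the SLC1, SLC6 and SLC38 families use the sodium gradient or exchange one neutral amino acid for another. In brain these carriers feed protein synthesis, supply cystine for glutathione and control the glycine and D-serine that act at NMDA receptors. Several carrier genes are known targets of ATF4, the transcription factor that is translated when amino acids run short or mitochondria are stressed, and Slc7a11 is also a known target of the antioxidant factor NRF2.

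Total counts ran from 19558377 to 28675367 in TfamAKO libraries and from 16584245 to 26032470 in WT libraries. Tfam, the targeted gene, averaged 22.5 ± 1.63 CPM in TfamAKO and 29.7 ± 5.17 CPM in WT (SD, n = 5 each), a log2 fold change of -0.40 ± 0.12 (edgeR adjusted p = 0.0204). The groups overlapped, with WT 3 at 20.6 CPM below 4 of the 5 TfamAKO libraries, and the call held in 16 of 23 alternatives, with adjusted p up to 0.144. TfamAKO 4 and 5 carried the Y-linked transcript Kdm5d at 22.7 and 22.4 CPM, against 0.699 CPM or less in the other libraries, so sex was not balanced between the genotypes. WT 3, 4 and 5 carried choroid plexus transcripts, with Ttr, named here after its values were seen, at 5146, 3801 and 2511 CPM, against 15.5 to 107 CPM in TfamAKO and 14.3 and 122 CPM in WT 1 and 2. The hippocampal markers Prox1, Zbtb20 and Wfs1, chosen after the data were seen, were present in every library, at 34.6 CPM or more. In bulk tissue, fewer cells of a type and less RNA per cell cannot be told apart.

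Promoter sequence was available for 7 of the 10 genes, in 10 windows that reach from 250 bases before to 50 bases after a transcription start (RefSeq, build GRCm38.p6). The windows were searched on both strands for TGATGNAA, the composite site bound by ATF4, and for TGACNNNGC, the core of the antioxidant response element bound by NRF2. The letters of these motifs do not overlap in any window printed here. The sequences below, in lower case with matches in capitals, cover 100 bases before to 10 bases after the start on the gene's own strand. They set carriers that rose (Slc7a11, Slc1a4, Slc3a2, Slc7a1) beside the carriers that fell (Slc38a2, Slc7a10), a choice made with these changes known. Slc6a9 also rose, and its windows were searched but are not printed. Slc7a5, Slc7a3 and Slc1a5, which rose as well, had no promoter sequence available, so the windows cover only a part of the carriers that rose.

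Slc7a11 (chr3:50443604-50443713, minus strand): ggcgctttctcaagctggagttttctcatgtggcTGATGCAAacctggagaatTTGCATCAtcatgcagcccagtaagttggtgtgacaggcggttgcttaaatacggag
Slc1a4 (chr11:20332704-20332813, minus strand): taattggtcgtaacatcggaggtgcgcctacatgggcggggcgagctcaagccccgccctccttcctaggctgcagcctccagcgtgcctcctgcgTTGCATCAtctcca
Slc3a2 (chr19:8713888-8713997, minus strand): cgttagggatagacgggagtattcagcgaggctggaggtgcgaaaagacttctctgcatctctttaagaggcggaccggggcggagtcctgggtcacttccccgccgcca
Slc7a1 (chr5:148399895-148400004, minus strand): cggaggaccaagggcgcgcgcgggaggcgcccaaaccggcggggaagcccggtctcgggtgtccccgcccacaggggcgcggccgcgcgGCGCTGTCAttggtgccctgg
Slc38a2 (chr15:96699719-96699828, minus strand): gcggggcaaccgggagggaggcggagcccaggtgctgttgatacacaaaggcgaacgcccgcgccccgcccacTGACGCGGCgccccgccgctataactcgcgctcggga
Slc7a10 (chr7:35186285-35186394, plus strand): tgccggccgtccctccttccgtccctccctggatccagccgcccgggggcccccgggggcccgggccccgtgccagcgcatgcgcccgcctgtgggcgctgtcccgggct

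Slc7a11 held the ATF4 letters in both orientations, with first bases 66 and 47 bases before the start, and Slc1a4 held them across its start. Of all 32851 promoter windows, 3.97% held this motif and 0.0700% held it more than once. The antioxidant response core was found in windows of Slc7a1, Slc38a2 and Slc6a9, and in 12.4% of all windows. A match describes letters in these windows only, and binding was not measured.

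Each of the 10 transcripts passed the test, 8 with a rise and 2 with a fall in TfamAKO. The members that rose were Slc1a5, Slc7a3, Slc7a5, Slc7a11, Slc3a2, Slc7a1, Slc6a9 and Slc1a4, and those that fell were Slc7a10 and Slc38a2. Of all genes tested, 37.4% passed the same threshold (edgeR quasi-likelihood test, Benjamini-Hochberg adjusted p under 0.05), 20.8% higher and 16.6% lower. A rise of more than 1 on the log2 scale was found for 5 of the 10, against 6.07% of all genes, and a fall of more than 1 for Slc7a10 alone, against 1.98%. The groups did not overlap for 8 of the 10 (23.9% of all genes). In 6 of these, every TfamAKO library lay above every WT library (14.5% of all genes), and in 2 it lay below (9.43%). The median log2 fold change was 1.39 over the 10 carriers and -0.02 over all genes tested. Because the 10 were chosen with earlier results of these data known, these shares and medians only describe them. They do not test whether amino acid carriers as a class stand out.

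Together the 10 transcripts made up 0.127% to 0.150% of all counts in TfamAKO libraries and 0.0495% to 0.0590% in WT libraries. Without TfamAKO 4 and 5 the counts of calls were the same, 8 higher and 2 lower. Without WT 3, 4 and 5, 6 were called higher and 2 lower, since Slc1a4 (adjusted p = 0.255) and Slc6a9 (adjusted p = 0.137) no longer passed.

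**Figure D1:**
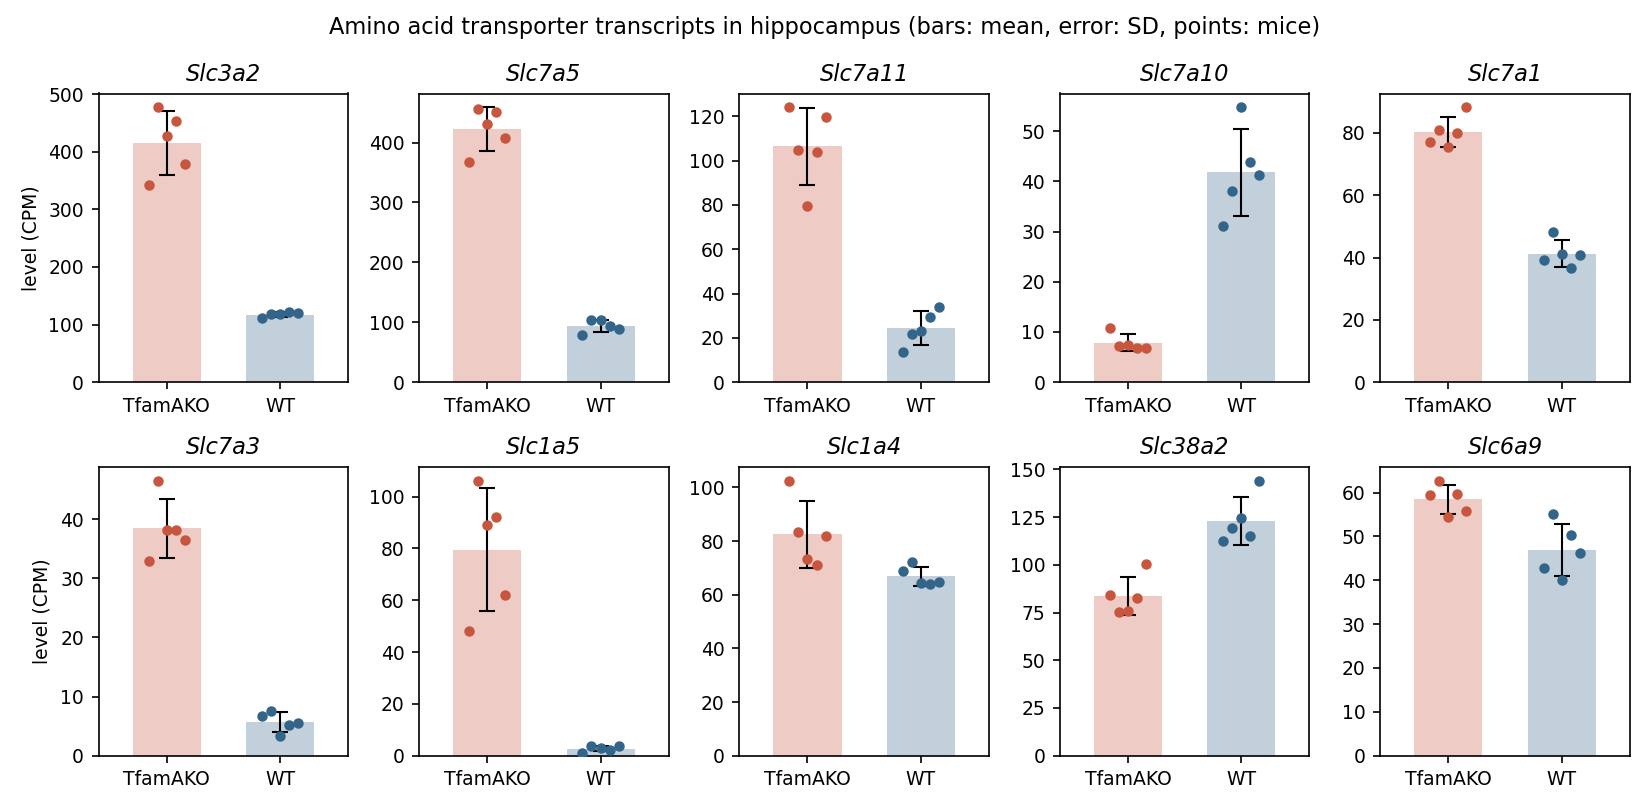
Level of each carrier transcript (vertical axes, CPM, each starting at 0) in TfamAKO and WT hippocampus. Points are mice 1 to 5 of each genotype from left to right, bars are means and error bars are SD (n = 5 each). Slc1a4 and Slc6a9 are the panels in which the genotypes overlap.

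The heavy chain and its most abundant light chain rose to nearly the same CPM, which is not corrected for transcript length. Per kilobase of the longest coding transcript, Slc3a2 averaged 148 CPM and Slc7a5 120.1 CPM in TfamAKO. Slc3a2, the shared heavy chain, was at 341, 477, 428, 453 and 378 CPM in TfamAKO 1 to 5 and at 111, 118, 118, 121 and 119 CPM in WT 1 to 5. Slc7a5 encodes LAT1, the light chain that exchanges large neutral amino acids such as leucine and is abundant in endothelium of the blood-brain barrier. It was at 367, 457, 431, 450.4 and 407 CPM in TfamAKO 1 to 5 and at 78.7, 104, 104, 93.3 and 89.5 CPM in WT 1 to 5. The lowest TfamAKO library, TfamAKO 1 for both genes, lay above every WT library.

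Slc3a2 rose by 1.82 ± 0.09 (log2 fold change ± SE, edgeR adjusted p = 6.98e-08) and Slc7a5 by 2.17 ± 0.09 (edgeR adjusted p = 1.87e-08), or 3.54-fold and 4.50-fold. Slc3a2 averaged 416 ± 55.3 CPM in TfamAKO and 117 ± 4.07 CPM in WT (SD, n = 5 each), so its spread was wider among TfamAKO mice. Of 8 endothelial markers tested, 6 were higher and 0 lower in TfamAKO, against 20.8% and 16.6% of all genes. These markers had a median log2 fold change of 0.77 and a largest one of 1.12. Their summed level was 454 to 765 CPM in TfamAKO and 285 to 423 CPM in WT, with no marker at 0. The part of endothelial RNA in the rise of Slc7a5 and Slc3a2 was not tested.

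Slc7a11 rose and Slc7a10 fell, although both encode light chains of the same heavy chain. SLC7A11, or xCT, takes up cystine in exchange for glutamate, and the cystine serves glutathione synthesis. Slc7a11 was at 124, 105, 79.7, 104 and 119.8 CPM in TfamAKO 1 to 5 and at 13.6, 21.9, 22.9, 29.6 and 34.0 CPM in WT 1 to 5. Every TfamAKO library lay above every WT library, and WT 1 was the lowest and WT 5 the highest of WT. The log2 fold change was 2.12 ± 0.21 (edgeR adjusted p = 1.73e-05), or 4.34-fold.

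SLC7A10, or Asc-1, carries small neutral amino acids, among them D-serine and glycine, and its transcript is found in mouse astrocytes. Slc7a10 was at 10.8, 7.26, 7.49, 6.76 and 6.87 CPM in TfamAKO 1 to 5 and at 31.0, 38.1, 54.8, 43.9 and 41.4 CPM in WT 1 to 5. TfamAKO 1 was the highest of the TfamAKO libraries and still lay far below WT 1, the lowest of WT. The TfamAKO level was 0.187 of the WT level, a log2 fold change of -2.42 ± 0.17 (edgeR adjusted p = 1.50e-06).

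Astrocyte markers went both ways. Of 9 astrocyte markers tested, 3 were higher and 4 lower in TfamAKO, against 20.8% and 16.6% of all genes. These markers had a median log2 fold change of -0.06 and a lowest one of -1.20. Their summed level was 4122 to 5737 CPM in TfamAKO and 5464 to 7081 CPM in WT, with no marker at 0. Slc1a2 and Slc1a3 are among these markers. The part of astrocyte number in the fall of Slc7a10 was not tested.

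Relative to the heavy chain, the light chains moved apart. For each of 6 light chains known to pair with SLC3A2, the log2 ratio of its count to the Slc3a2 count was compared between genotypes within libraries, which does not depend on scaling between them. Slc7a5 stood at 0.957 to 1.08 counts per Slc3a2 count in TfamAKO and 0.712 to 0.883 in WT, a difference of 0.36 in mean log2 ratio. Slc7a10 stood at 0.0149 to 0.0317 counts per Slc3a2 count in TfamAKO and 0.281 to 0.466 in WT, a difference of -4.22. The groups did not overlap for either ratio, and both had adjusted p = 0.00952 (two-sided exact permutation test over libraries, adjusted over 6 ratios). For Slc7a10 this outcome was fixed in advance. Its own level lay lower and that of Slc3a2 higher in every TfamAKO library, so its ratio adds no separate support.

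The Slc7a11 ratio, in contrast, overlapped between the genotypes. It was 0.186 to 0.364 in TfamAKO and 0.123 to 0.285 in WT, and the difference of 0.36 in mean log2 ratio had adjusted p = 0.230 in the same exact permutation test. SDs of the log2 ratio were 0.40 in TfamAKO and 0.46 in WT, so a difference of this size was within the spread between mice. Without WT 3, 4 and 5 it was 0.76, with too few WT mice for the adjusted test.

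The ratios of Slc7a6, Slc7a7 and Slc7a8 to Slc3a2 were lower in TfamAKO by -1.98, -0.85 and -1.53 on the log2 scale, each with adjusted p = 0.00952 in the exact permutation test, whose smallest unadjusted p is 0.00794. None of the 3 transcripts was called lower in its own level. Slc7a8 encodes LAT2, a carrier of neutral amino acids, and Slc7a6 and Slc7a7 encode carriers of cationic and neutral amino acids. Slc7a8 rose by 0.28 ± 0.07 (edgeR adjusted p = 0.00831), Slc7a7 rose by 0.94 ± 0.25 (edgeR adjusted p = 0.0106), and Slc7a6 had a log2 fold change of -0.17 ± 0.13 that did not pass (edgeR adjusted p = 0.322). All 3 lower ratios therefore have the higher Slc3a2 count below the line.

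**Figure D2:**
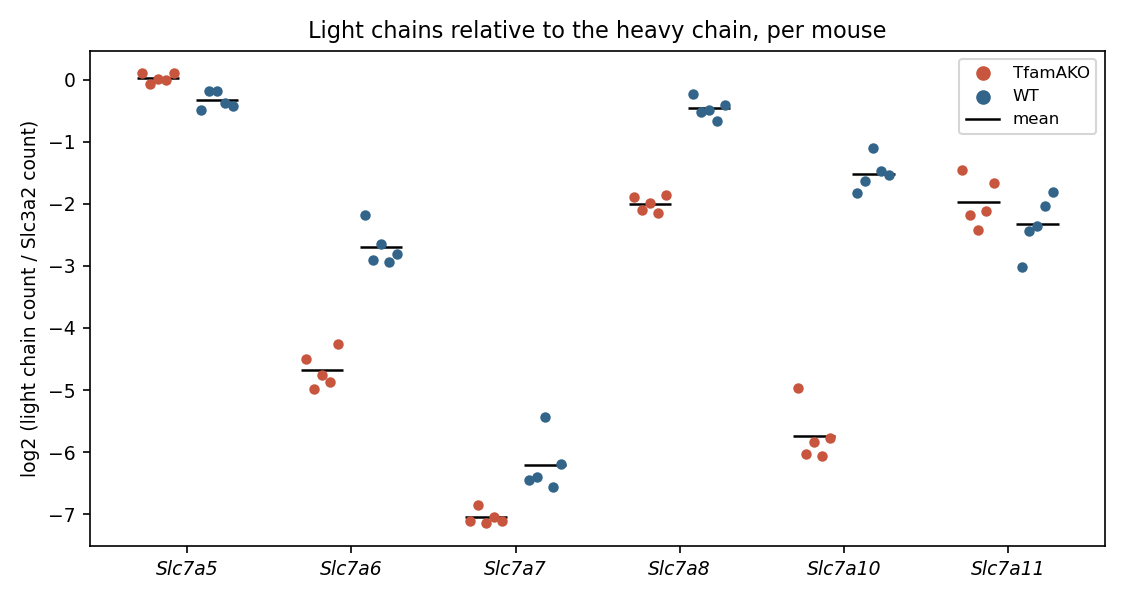
Log2 ratio of each light chain count to the Slc3a2 count (vertical axis), for 5 TfamAKO and 5 WT mice per light chain, with black lines at the means. Slc7a10 is set apart by -4.22, and Slc7a11 is the light chain whose genotypes overlap.

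Per length of transcript, the light chain pool of the hippocampus had another makeup in TfamAKO. CPM per kilobase was taken over the longest coding transcript of each gene. Slc7a5 was 71.9% ± 2.10 of the summed level of the 6 light chains in TfamAKO and 34.5% ± 2.61 in WT (SD, n = 5 each). Slc7a10 was 2.44% ± 0.697 in TfamAKO and 27.5% ± 3.72 in WT, and Slc7a8 was 15.2% ± 0.542 in TfamAKO and 27.2% ± 3.78 in WT. Slc7a11 was 6.98% ± 1.45 in TfamAKO and 3.41% ± 1.07 in WT. Its share depends on the transcript, because the longest has 9223 bases and the next coding one 2419. With the shorter one it was 22.1% in TfamAKO and 11.8% in WT, and Slc7a5 was 60.2% in TfamAKO and 31.5% in WT.

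The summed light chains were at 151 to 178 CPM per kilobase in TfamAKO and 70.0 to 86.7 in WT. Slc3a2 was at 121 to 169.7 CPM per kilobase in TfamAKO and 39.3 to 43.2 in WT. In each library the light chains together lay above the heavy chain on this scale.

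**Figure D3:**
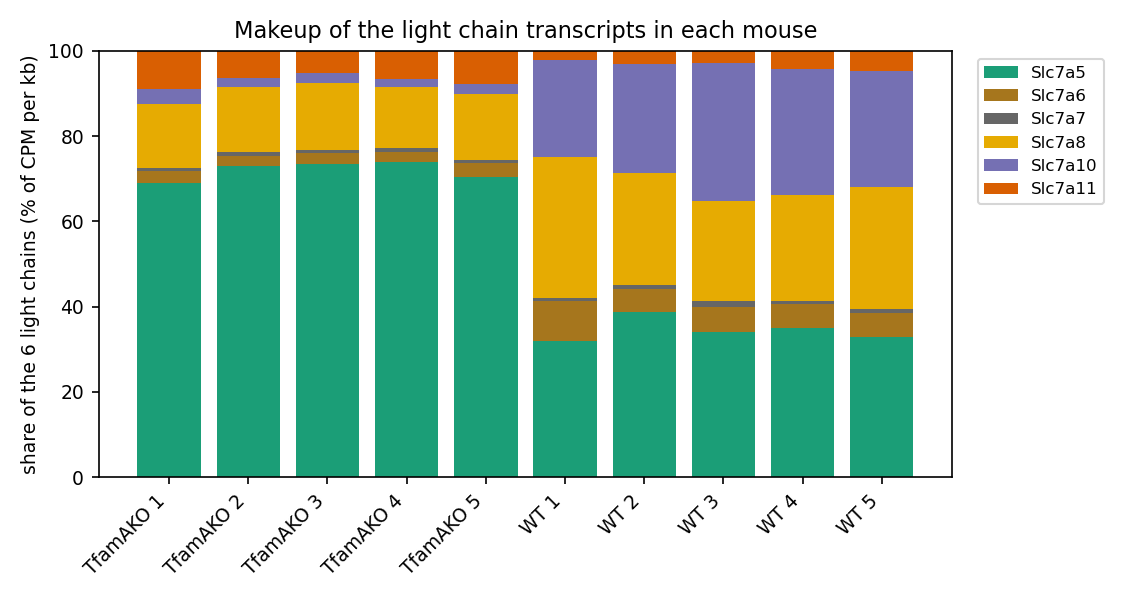
Share of each of 6 light chain transcripts (vertical axis, percent of their summed CPM per kilobase) in every library, TfamAKO 1 to 5 and then WT 1 to 5. The Slc7a5 share is 69.0% to 73.8% in TfamAKO and 32.0% to 38.7% in WT, and the Slc7a10 share is 1.99% to 3.67% in TfamAKO and 22.7% to 32.4% in WT.

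Both cationic carriers among the 10 rose. SLC7A1 (CAT1) and SLC7A3 (CAT3) bring arginine, lysine and ornithine into cells, and arginine is the substrate of nitric oxide synthesis. Slc7a1 was at 77.1, 80.9, 75.6, 80.0 and 88.3 CPM in TfamAKO 1 to 5 and at 39.1, 48.3, 41.2, 36.7 and 40.8 CPM in WT 1 to 5. It rose by 0.96 ± 0.08 on the log2 scale (edgeR adjusted p = 4.21e-06), with no overlap and an SD of 4.88 CPM in TfamAKO and 4.34 CPM in WT.

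Slc7a3, which was scarce in WT, was at 33.0, 46.5, 38.2, 38.2 and 36.5 CPM in TfamAKO 1 to 5 and at 6.76, 7.63, 3.33, 5.16 and 5.49 CPM in WT 1 to 5. All 5 TfamAKO libraries lay far above the highest WT library, and the log2 fold change was 2.76 ± 0.18 (edgeR adjusted p = 1.04e-06), or 6.77-fold. Slc7a2, which encodes the cationic carrier CAT2, also rose, to 66.5 ± 8.70 CPM in TfamAKO against 28.0 ± 2.85 CPM in WT (log2 fold change 1.25 ± 0.10, edgeR adjusted p = 3.97e-06). Their relatives Slc7a4 and Slc7a14, named after their values were seen, had log2 fold changes of -0.38 ± 0.17 and 0.18 ± 0.13 that did not pass (edgeR adjusted p = 0.0977 and 0.291).

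The neutral amino acid exchangers of the SLC1 family differed widely in the size of their rise. SLC1A5, or ASCT2, exchanges glutamine and other neutral amino acids and is scarce in adult brain. Slc1a5 was at 48.3, 106, 89.1, 92.3 and 62.1 CPM in TfamAKO 1 to 5 and at 1.17, 3.65, 2.96, 2.21 and 3.57 CPM in WT 1 to 5. It had the largest rise of the 10, 4.84 ± 0.29 on the log2 scale (edgeR adjusted p = 4.72e-07), or 28.7-fold. TfamAKO 1 and 5 were low within their group and far above all WT libraries.

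SLC1A4, or ASCT1, exchanges alanine, serine and cysteine and carries serine in brain. Slc1a4 was at 102, 83.4, 73.4, 71.2 and 81.8 CPM in TfamAKO 1 to 5 and at 68.9, 72.3, 64.4, 64.1 and 64.7 CPM in WT 1 to 5. TfamAKO 4 lay below WT 2, so the groups overlapped, and the log2 fold change was 0.30 ± 0.09 (edgeR adjusted p = 0.0219). The call ended without WT 3, WT 4 or WT 5 alone (edgeR adjusted p = 0.0509, 0.0516 and 0.0583) and in the authors' own normalized table, where limma at a pseudocount of 1 gave a change of 0.28 on the log2 scale (adjusted p = 0.0606).

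The sodium-coupled carriers went opposite ways. SLC38A2, or SNAT2, takes up small neutral amino acids such as alanine and glutamine, and its gene is known to be induced when amino acids are scarce. Slc38a2 was at 84.3, 75.4, 75.6, 82.8 and 100.4 CPM in TfamAKO 1 to 5 and at 112, 119, 124, 115 and 144 CPM in WT 1 to 5. Every TfamAKO library lay below every WT library, and the log2 fold change was -0.56 ± 0.09 (edgeR adjusted p = 0.000673). Its promoter window, printed above, held the letters of the antioxidant response core.

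SLC6A9, or GlyT1, removes glycine from the extracellular space, mainly into astrocytes. Slc6a9 was at 59.5, 62.7, 54.4, 59.7 and 55.8 CPM in TfamAKO 1 to 5 and at 42.8, 55.1, 40.1, 50.4 and 46.3 CPM in WT 1 to 5. TfamAKO 3 lay just below WT 2, and the log2 fold change was 0.31 ± 0.09 (edgeR adjusted p = 0.0128). In the authors' own normalized table the change was 0.22 and did not pass (limma, adjusted p = 0.200).

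On the longest transcripts, the order of the levels per length was not the same in both genotypes. In TfamAKO it ran from Slc3a2 (148 ± 19.6 CPM per kilobase, SD, n = 5) and Slc7a5 (120.1 ± 10.4) to Slc1a5 (28.8 ± 8.57), Slc1a4 (21.0 ± 3.15), Slc38a2 (18.0 ± 2.19), Slc6a9 (16.8 ± 0.953), Slc7a3 (14.0 ± 1.81), Slc7a11 (11.5 ± 1.89), Slc7a1 (11.2 ± 0.680) and Slc7a10 (4.02 ± 0.870). In WT it ran from Slc3a2 (41.7 ± 1.45) to Slc7a5 (26.7 ± 3.01), Slc38a2 (26.4 ± 2.70), Slc7a10 (21.4 ± 4.46), Slc1a4 (17.0 ± 0.915), Slc6a9 (13.5 ± 1.72), Slc7a1 (5.74 ± 0.605), Slc7a11 (2.65 ± 0.849), Slc7a3 (2.06 ± 0.598) and Slc1a5 (0.981 ± 0.376). Slc1a5 held the third place in TfamAKO and the last in WT, and Slc7a10 the last in TfamAKO and the fourth in WT. In TfamAKO only the steps from Slc7a5 to Slc1a5 and from Slc7a1 to Slc7a10 separated neighbours without overlap of their ranges. In WT the steps below Slc3a2, Slc1a4, Slc6a9 and Slc7a1 did so. With its 2419-base transcript, a choice made after the data were seen, Slc7a11 would stand at 44.0 ± 7.20 CPM per kilobase in TfamAKO, above Slc1a5. Their TfamAKO ranges would overlap, at 33.0 to 51.3 for Slc7a11 and 17.5 to 38.4 for Slc1a5. In WT Slc7a11 would stand at 10.1 ± 3.24, between Slc6a9 and Slc7a1 with overlap of both ranges.

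TfamAKO 1 stood at the edge of its group for several carriers. It had the lowest Slc3a2, Slc7a5, Slc7a3 and Slc1a5 and the highest Slc7a11, Slc7a10 and Slc1a4 of the TfamAKO libraries. Its summed endothelial markers were also the lowest of TfamAKO, at 454 CPM against 648 to 765 CPM in TfamAKO 2 to 5. Single markers, named after their values were seen, were mixed. Slc2a1 was at 139 CPM in TfamAKO 1 and at 290 to 355 CPM in TfamAKO 2 to 5. Pecam1 and Emcn were also lowest in TfamAKO 1, but Flt1 in TfamAKO 3 and Cldn5, Cdh5, Tek and Slco1c1 in TfamAKO 5. The summed astrocyte markers of TfamAKO 1 were the highest of TfamAKO, at 5737 CPM. Aldh1l1, Aqp4 and Glul were highest in TfamAKO 2 and the other astrocyte markers, Slc1a2 among them, in TfamAKO 1. The part of cell makeup in the carrier levels of TfamAKO 1 was not tested. Without TfamAKO 1 all 10 calls held, and the change of Slc1a4 was 0.21 on the log2 scale.

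Of 34 other amino acid carriers listed for comparison, 31 were in the table and 26 were tested. In TfamAKO, 8 were higher and 5 lower, against 20.8% and 16.6% of all genes, and 13 did not pass. The median log2 fold change was -0.09. Those with the smallest p were Slc7a2, described above, Slc43a2, Slc38a5, Slc38a3, Slc1a3, Slc6a6, Slc1a2 and Slc7a8. Slc38a5 encodes SNAT5, a carrier of glutamine, and rose to 8.99 ± 2.88 CPM in TfamAKO against 2.03 ± 0.707 CPM in WT (log2 fold change 2.12 ± 0.28, edgeR adjusted p = 0.000157). Slc38a3, the glutamine carrier SNAT3, rose by 0.75 ± 0.14 (edgeR adjusted p = 0.00155). Slc43a2, the neutral amino acid carrier LAT4, rose by 0.57 ± 0.06 (edgeR adjusted p = 2.09e-05), and by 0.92 in the authors' own normalized table (limma at a pseudocount of 1). The taurine carrier gene Slc6a6 rose by 0.72 ± 0.14 (edgeR adjusted p = 0.00232).

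The astrocytic glutamate carriers moved in opposite directions. Slc1a3 (GLAST) rose by 0.55 ± 0.11 (edgeR adjusted p = 0.00222), and Slc1a2 (GLT-1) fell to 1340.3 ± 320.3 CPM in TfamAKO against 2122 ± 187 CPM in WT (log2 fold change -0.66 ± 0.13, edgeR adjusted p = 0.00256). The other carriers called lower, outside the rule for named genes, were Slc1a1, Slc6a7, Slc6a15 and Slc38a1, with log2 fold changes between -0.46 and -0.19. Without WT 3, 4 and 5, 1 of these other carriers was called lower, and without TfamAKO 4 and 5, 2 were. Without TfamAKO 4 alone or WT 5 alone 3 were called lower. Slc6a6 and Slc7a8 lost their calls without WT 3, 4 and 5 (edgeR adjusted p = 0.0858 and 0.103).

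**Figure D4:**
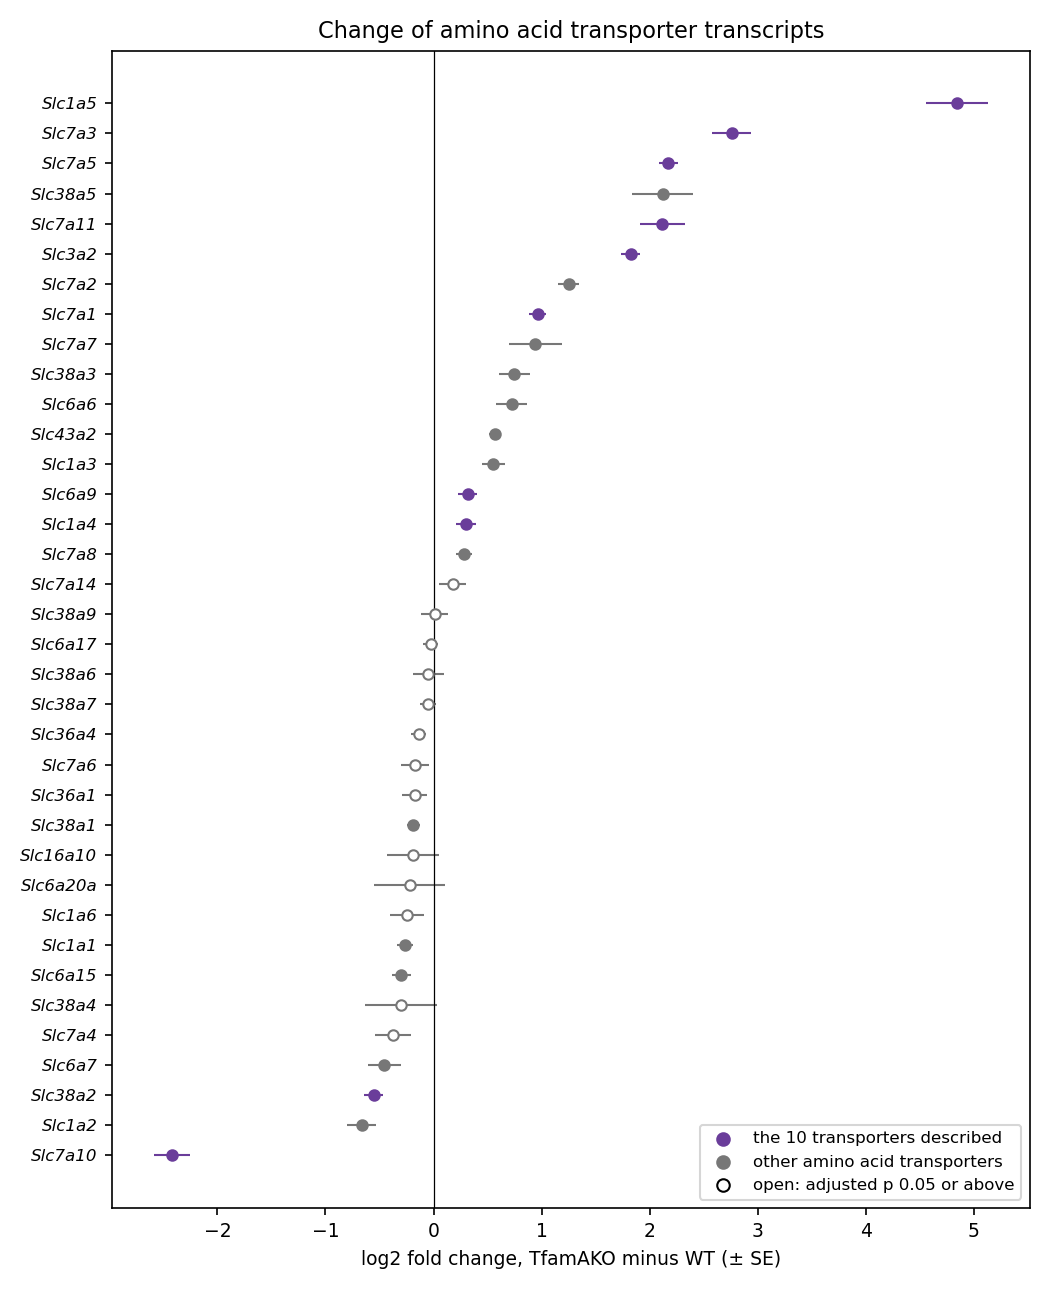
Log2 fold change of TfamAKO over WT (horizontal axis, error bars SE) for the 10 carriers described here and the 26 other amino acid carriers tested, ordered by size. Slc1a5 lies at 4.84 and Slc7a10 at -2.42, and the other carriers lie between -0.66 and 2.12. Open points did not pass the threshold.

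Enzymes that make or use the transported amino acids were followed as a further list. Of 20 tested, 10 were higher and 3 lower in TfamAKO, against 20.8% and 16.6% of all genes, with a median log2 fold change of 0.34. The lower ones, outside the rule for named genes, were Arg2, which splits arginine, Cbs, which makes cystathionine, and Glul, which makes glutamine. The enzymes of serine synthesis Phgdh (0.82 ± 0.09, edgeR adjusted p = 4.50e-05), Psat1 (1.35 ± 0.11, edgeR adjusted p = 4.20e-06) and Psph (1.26 ± 0.11, edgeR adjusted p = 6.26e-06) rose on the log2 scale. So did Shmt2, which turns serine into glycine in mitochondria (1.40 ± 0.07, edgeR adjusted p = 7.10e-08). Cth, which makes cysteine from cystathionine, rose to 12.7 ± 1.01 CPM in TfamAKO against 3.01 ± 0.570 CPM in WT (log2 fold change 2.07 ± 0.14, edgeR adjusted p = 1.20e-06).

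Among 13 regulators of the ATF4 and NRF2 pathways tested, 8 were higher and 1 lower in TfamAKO, against the same shares of all genes. The lower one, outside the rule for named genes, was Eif2ak1, which encodes a heme-regulated kinase. The Atf4 transcript, also outside that rule, rose by 0.62 ± 0.11 on the log2 scale (edgeR adjusted p = 0.00109), with overlap between the groups. ATF4 is controlled mainly through its translation, which these libraries do not measure. Trib3, Ddit3, Ppp1r15a and Atf3, known ATF4 targets, rose by 5.64 ± 0.24, 2.05 ± 0.15, 1.84 ± 0.15 and 3.33 ± 0.33 on the log2 scale (edgeR adjusted p = 3.20e-08, 2.65e-06, 5.47e-06 and 1.97e-05). Nfe2l2, which encodes NRF2, rose to 40.7 ± 3.26 CPM in TfamAKO against 16.1 ± 3.81 CPM in WT (log2 fold change 1.33 ± 0.14, edgeR adjusted p = 3.58e-05).

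Markers of other cells were summed in the same way. The counts of markers called stand against 20.8% of all genes tested called higher and 16.6% called lower. Of 6 microglial markers 5 were higher and 0 lower, with sums of 393 to 522 CPM in TfamAKO and 219 to 252 CPM in WT. Of 8 neuronal markers 0 were higher and 4 lower, with sums of 5031 to 6224 CPM in TfamAKO and 6587 to 7172 CPM in WT. Of 6 oligodendrocyte markers 1 was higher and 0 lower, with sums of 5385 to 7385 CPM in TfamAKO and 4979 to 8669 CPM in WT. All 8 choroid plexus markers were lower in TfamAKO, with sums of 36.5 to 133 CPM in TfamAKO and 42.6 to 5652 CPM in WT. The high WT sums were those of WT 3, 4 and 5, while WT 1 and 2, at 42.6 and 161 CPM, lay near the TfamAKO level. The oligodendrocyte sums overlapped between the genotypes. No marker of these lists was at 0 in a whole group, and the part of these cells in the changes of the carriers was not tested.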

How the data were processed

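Hippocampal RNA of 5 TfamAKO and 5 WT mice was sequenced from stranded mRNA libraries, per the labels' protocols. The authors deposited a table of unnormalized estimated counts, all whole numbers, and a second table of normalized values, whose scaling is not stated and whose unit is taken as a signal. Per the submitters' processing notes, Salmon (version not stated) and DESeq2 1.26.0 were used. Build and annotation: not given in the sources used here.

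Counts were tested with edgeR 4.0.16 (R 4.3.3) over all genes that passed filterByExpr (minimum count 10), with TMM scaling, the two-sided quasi-likelihood F test on genotype and Benjamini-Hochberg adjustment over 16180 genes. The filter removed 3976 genes. The SE was obtained as the size of the log2 fold change over the root of F. Ratios of light to heavy chain counts (pseudocount 0.5) were compared by a two-sided exact permutation test over all 252 assignments of libraries. Transcript lengths came from GENCODE M21 and promoters from RefSeq. The labels give no litter or batch, and p-values measure the spread between these mice only. The edgeR fit and the permutation test were tested on simulated data.

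The 10 members and all gene lists were chosen with earlier results of these data known. Genes named beyond the members are, per list, those with the smallest p past the threshold (8 other carriers, 5 enzymes, 5 regulators), and Tfam. Slc7a6 and Slc7a7 appear as light chains, and the text marks the genes named outside this rule. Alternatives used other scalings, filters and tests (DESeq2 1.42.0, limma 3.58.1), the normalized values, a replicate block, and left-out libraries. The labels state no pairing of mice by replicate number, and the main fit used none.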

Additional observations from a re-analysis of the deposited data

Results flagged for a closer look

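In 70 groups of 5 libraries, 6 had a highest or lowest library far from the other 4. Chance gives about 5% of such groups if they are independent and normally distributed. These groups share libraries, and Slc7a10 in TfamAKO 1 was flagged both as level and as ratio, so the 5% is only a rough guide. Slc7a10 was at 10.8 CPM in TfamAKO 1 and at 6.76 to 7.49 CPM in TfamAKO 2 to 5, and its log2 ratio to Slc3a2 was -4.97 in TfamAKO 1 and -6.06 to -5.78 in the other 4. Slc1a2 was at 1890.2 CPM in TfamAKO 1 and at 1051 to 1284 CPM in TfamAKO 2 to 5. Both transcripts were thus nearer to the WT level in TfamAKO 1 than in the other TfamAKO libraries. Slc43a2 was at 59.9 CPM in WT 5 and at 56.5 to 57.0 CPM in WT 1 to 4, a gap that is small beside its difference between the genotypes. Tfam was at 19.6 CPM in TfamAKO 3 and at 22.7 to 23.6 CPM in the other TfamAKO libraries, and at 20.6 CPM in WT 3 and at 30.4 to 33.0 CPM in the other WT libraries. The Tfam level of WT 3 lay below 4 of the 5 TfamAKO libraries.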

How the results depend on the processing

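Over 23 other settings of the fit, all 10 carriers kept their direction, and Slc3a2, Slc7a5, Slc7a11, Slc7a10, Slc7a1, Slc7a3, Slc1a5 and Slc38a2 passed in each. Slc1a4 passed in 16 and Slc6a9 in 19 of the 23. Genes called over the whole table were 2752 without WT 3, 4 and 5, and 4828 to 7094 with 1 library left out. Other carriers called lower were 8 with limma-voom and sample weights, 2 without TfamAKO 4 and 5, 1 without WT 3, 4 and 5, and 3 to 6 with 1 library left out. Called genes did not fall in every setting with fewer libraries, at 7094 without TfamAKO 1 and 6478 without TfamAKO 5 against 6048 with all libraries. The cause of these shifts was not tested. The replicate block gave 5679 genes, with 8 of the 10 carriers higher and 2 lower. Same-numbered libraries deviated together with correlations of only -0.142 to 0.0691, and none matched its own number best. No pairing by number was thus seen, but correlations over 5 mice per group cannot exclude one, and the labels name none. With single libraries left out, 7 to 8 carriers were higher and 2 lower. The ratios of Slc7a5, Slc7a6, Slc7a7, Slc7a8 and Slc7a10 to Slc3a2 kept their direction and passed in all 13 tested alternatives, and that of Slc7a11 passed in none. For Slc7a10 this followed from its own fall and the rise of Slc3a2. Tfam passed in 16 of 23. Among the 10 carriers the lowest count was 19, for Slc1a5 in WT, and of the other genes named Trib3 and Atf3 went down to 2 and 6 counts.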

Other observations

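The enzyme list holds 5 genes of glutathione metabolism, singled out here after their values were seen. Gclm, the modifier subunit gene of glutamate-cysteine ligase, rose by 0.38 ± 0.06 on the log2 scale in TfamAKO (edgeR adjusted p = 0.000377), and the glutathione synthetase gene Gss rose by 0.29 ± 0.10 (edgeR adjusted p = 0.0455). The glutathione reductase gene Gsr rose by 0.98 ± 0.12 (edgeR adjusted p = 9.58e-05), and Chac1, which degrades glutathione, rose by 1.87 ± 0.30 (edgeR adjusted p = 0.000637). Gclc, the catalytic subunit gene of the ligase, had a log2 fold change of 0.04 ± 0.05 that did not pass (edgeR adjusted p = 0.528). Chac1 varied among TfamAKO mice, with 6.93 CPM in TfamAKO 4 and 26.6 CPM in TfamAKO 5, against 4.11 to 6.58 CPM in WT.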
